A study of Mus musculus with 32 samples.

Results

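The genes described here are those of the mouse proteasome: the gene names of the count tables that begin with Psma, Psmb, Psmc or Psmd and a digit, without pseudogenes, at a mean of at least 1 CPM (reads scaled to the size of the library) over the 32 libraries. The rule matched 40 names and kept 39 of the 24062 genes counted. The one left out was Psma8, the testis form of an alpha ring subunit, at a mean of 0.663 CPM. The members just inside the threshold were Psmc3ip at 3.07 CPM, Psmb8 at 3.53 CPM and Psmb11 at 3.99 CPM. By role, 35 members encode subunits of the particle, and Psmd5, Psmd9 and Psmd10 encode chaperones that help assemble its cap. Psmc3ip only shares the name: it encodes a protein of meiotic recombination and is no subunit.

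The proteasome is the protease that breaks down proteins marked with ubiquitin. Its 20S core is a barrel of stacked rings, with alpha subunits (Psma genes) forming the gates and beta subunits (Psmb genes) holding the active sites inside. The 19S cap that docks on the core has a base, with a ring of ATPases (Psmc genes) that unfolds the substrate and threads it into the core, and a lid (Psmd genes) that helps to remove the ubiquitin chain. Interferon signaling induces Psmb8, Psmb9 and Psmb10, which replace the constitutive catalytic subunits Psmb5, Psmb6 and Psmb7 in the immunoproteasome, and Psmb11 is the catalytic subunit of the thymus form. In neurons the proteasome takes part in synaptic remodeling and in the disposal of damaged proteins.

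The libraries came from cortices of male mice of the S100a10 bacTRAP line, Tg(S100a10-EGFP/Rpl10a)ES691Htz, which carries an EGFP-tagged ribosomal protein L10a under S100a10 regulatory elements in every group. Polysomes pulled down through the tag gave the TRAP (translating ribosome affinity purification) libraries, and total cortical RNA gave the input libraries. Group-housed (Gh) mice were the controls, and Sh mice were housed singly from weaning into adulthood. The labels give vehicle as the treatment of both groups. Sh + Flx mice were single-housed and drank fluoxetine, a serotonin reuptake inhibitor, at 0.167 g/L for 21 days. Sh + Flx anxious mice had the same housing and drug but were set apart by their behavior in the open field. Each library pooled 3 mice, and each group had 4 libraries per fraction. The labels name S100a10 neurons of cortical layer 5a, but the tag follows S100a10 regulatory elements, so any cell type in which these are active can carry it. In such bulk libraries, fewer cells of a type and less RNA per cell cannot be told apart.

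The counts assigned to genes ranged from 9776244 to 64788703 per TRAP library and from 19265435 to 34515281 per input library. S100a10 itself was higher in Gh TRAP (53.4 CPM, n = 3) than in Gh input (8.81 CPM, n = 4) by 2.59 on the log2 scale (SE 0.307; adjusted p = 2.526e-08, edgeR's quasi-likelihood test). A pair of libraries, Sh TRAP 2 and Sh TRAP 3, stood apart from their group: S100a10 was at 19.1 and 11.9 CPM there, below the 39.6 to 68.4 CPM of the remaining TRAP libraries. Summed over 7 nuclear long noncoding RNAs, these libraries held 31810 and 53810 CPM, whereas the rest of TRAP held 3946 to 10160 CPM and Gh input 53480 to 63650 CPM. The counts of members called on Sh TRAP, and the called members' fold changes against Sh, are therefore given with and without them. Gh TRAP 2 and Gh TRAP 3 differed by little more than sampling noise (mean chi-square of 1.132 per gene, where sampling alone gives 1) and were summed, so that Gh TRAP counted n = 3. Sh TRAP 1 and Sh TRAP 4 were also closely alike (2.173 per gene, against 64.8 to 407.4 for the other pairs of Sh TRAP), and where libraries share a source the p-values measure only the spread between these libraries.

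Promoter sequences are shown for the members in which the core of the antioxidant response element was found, and for Psmb8. Factors of the Nfe2l1 and Nfe2l2 family drive many subunit genes through the antioxidant response element, here searched by its core TGACNNNGC on both strands in the 250 bases before each RefSeq transcript start (GRCm38.p6). Windows were found for 33 of the 39 members (35 windows), and none for Psmb1, Psmb2, Psmb7, Psmc3, Psmd3 and Psmd7. The core was in 5 of the 35 windows (14.3%), against 10.2% of all 32851 windows. For Psmb6 it lies before the transcript start used but inside the annotated gene, which begins at 70525324. These 5 windows are given 5′ to 3′ on the strand of the gene, with the core or its reverse complement in capitals: Psmb5 (chr14:54617996-54618245, minus strand), Psmb6 (chr11:70525107-70525356, plus strand), Psmd12 (chr11:107479278-107479527, plus strand), Psmc6 (chr14:45329574-45329823, plus strand) and Psmd9 (chr5:123227940-123228189, plus strand).
Psmb5: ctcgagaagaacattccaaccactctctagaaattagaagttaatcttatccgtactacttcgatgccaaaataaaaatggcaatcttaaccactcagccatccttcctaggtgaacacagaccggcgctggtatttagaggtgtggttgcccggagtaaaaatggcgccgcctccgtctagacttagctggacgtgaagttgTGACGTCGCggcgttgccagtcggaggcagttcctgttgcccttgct
Psmb6: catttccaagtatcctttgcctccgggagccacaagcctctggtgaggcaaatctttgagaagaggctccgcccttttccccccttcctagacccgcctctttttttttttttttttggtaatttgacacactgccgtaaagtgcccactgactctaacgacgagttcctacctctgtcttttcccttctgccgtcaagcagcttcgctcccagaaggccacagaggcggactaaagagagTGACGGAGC
Psmd12: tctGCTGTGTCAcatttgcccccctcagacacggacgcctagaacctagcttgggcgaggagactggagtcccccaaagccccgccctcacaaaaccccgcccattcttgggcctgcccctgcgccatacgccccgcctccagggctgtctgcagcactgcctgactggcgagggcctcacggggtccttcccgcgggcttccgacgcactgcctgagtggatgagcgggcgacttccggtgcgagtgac
Psmc6: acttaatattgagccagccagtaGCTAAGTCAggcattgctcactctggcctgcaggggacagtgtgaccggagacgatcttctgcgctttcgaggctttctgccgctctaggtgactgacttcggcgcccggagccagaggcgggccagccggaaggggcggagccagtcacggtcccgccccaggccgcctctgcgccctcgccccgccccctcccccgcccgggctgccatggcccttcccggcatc
Psmd9: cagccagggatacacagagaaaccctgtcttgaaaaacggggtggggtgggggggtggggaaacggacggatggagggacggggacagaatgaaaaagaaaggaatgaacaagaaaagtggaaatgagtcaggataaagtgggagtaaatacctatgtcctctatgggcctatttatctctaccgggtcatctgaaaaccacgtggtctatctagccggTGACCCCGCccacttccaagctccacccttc

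The elements through which interferons act were searched in the same windows. The core of the interferon-stimulated response element, a pair of spaced GAAA runs, was in 3 windows (8.57%), those of Psmb3, Psmd4 and Psmd9, against 2.98% of all windows. The gamma-activated site core TTCNNNGAA was in 1 window (2.86%), that of the inducible subunit gene Psmb8, against 7.02% of all windows, and it is shown in capitals as the only match among the inducible subunits (chr17:34197945-34198194, plus strand). The motifs can overlap one another, and a match describes letters, not a bound site.
Psmb8: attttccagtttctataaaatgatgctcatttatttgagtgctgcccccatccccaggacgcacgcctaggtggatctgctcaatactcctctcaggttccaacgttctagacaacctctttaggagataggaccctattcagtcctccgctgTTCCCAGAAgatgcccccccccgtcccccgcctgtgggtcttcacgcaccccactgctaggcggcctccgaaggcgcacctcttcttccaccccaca

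In the input libraries, the 31 constitutive subunits spanned a 13.4-fold range when levels were scaled to length. The scale here is TMM-normalized CPM per kilobase of exon, given as mean ± SD over 16 libraries. The length covers all annotated exons of a gene, whichever transcripts are used in cortex, so the order depends on it. The catalytic subunit Psmb7, which carries the trypsin-like site, was highest at 86.8 ± 8.70, followed by the ATPase Psmc5 at 81.1 ± 7.49 and the alpha subunit Psma2 at 70.4 ± 6.53. The lid subunit Psmd13 was the lowest constitutive subunit at 6.46 ± 1.11. Because the ranges of Psmb7 (72.7 to 104.6) and Psmc5 (66.9 to 94.1) overlapped, their order was not resolved beyond the spread of the libraries.

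**Figure D1:**
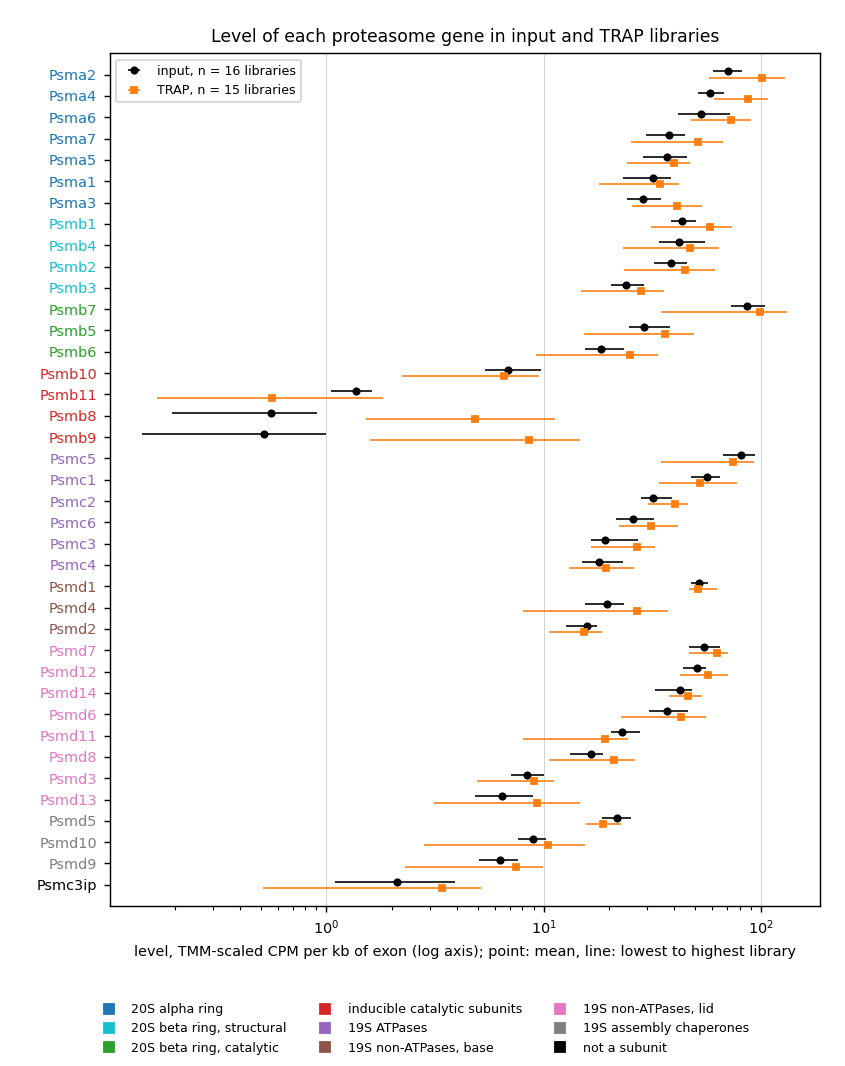
Level of each of the 39 members, by role, as TMM-scaled CPM per kilobase of exon on a log axis. Points are means and lines run from the lowest to the highest library (input, n = 16; TRAP, n = 15); Psmb8 and Psmb9 sit to the far left in input at 0.555 and 0.516 and shift right in TRAP, while Psmb11 shifts left.

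Within the core, levels per kilobase in input differed least among the structural beta subunits, from 24.0 for Psmb3 to 43.7 for Psmb1 (1.82-fold), and the alpha ring ran from 28.6 for Psma3 to 70.4 for Psma2 (2.46-fold). The place of Psma3 comes from its exon length of 2915 bases, against 946 for Psma2. Before scaling to length, Psma3 was the highest of the alpha ring in Gh input, at 87.5 CPM, with Psma2 at 73.2 CPM. The catalytic subunits were spread more widely, with Psmb6, the caspase-like subunit, at 18.5, Psmb5, the chymotrypsin-like subunit, at 29.0 and Psmb7 at 86.8. The ATPases ran from 18.0 for Psmc4 to 81.1 for Psmc5 and the lid from 6.46 for Psmd13 to 55.1 for Psmd7. Of the base, the ubiquitin receptor Psmd4 was at 19.6, and the scaffold subunits Psmd1 and Psmd2 were at 51.9 and 15.8. The coefficient of variation over the 16 input libraries was 5.21% to 17.2% for the constitutive subunits, lowest for Psmd1 and highest for Psmd13.

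Psmb8, Psmb9 and Psmb11 were scarce in cortex. In input, Psmb8 was at 0.555 ± 0.204, Psmb9 at 0.516 ± 0.244 and the thymus subunit Psmb11 at 1.37 ± 0.148 CPM per kilobase (SD, n = 16), on 6 to 34 reads per library for Psmb8 and 4 to 34 reads for Psmb9. The inducible subunit Psmb10 was more abundant, at 6.86 ± 1.12, near the lowest constitutive subunit, Psmd13, at 6.46 ± 1.11. Relative to the constitutive subunit that each replaces, levels per kilobase in input were 1.93 ± 0.704% for Psmb8 against Psmb5, 2.82 ± 1.30% for Psmb9 against Psmb6 and 7.93 ± 1.17% for Psmb10 against Psmb7. In TRAP (n = 15) the corresponding values were 13.5 ± 5.82%, 33.4 ± 11.5% and 6.67 ± 1.41%. The Psmb8 and Psmb9 shares were thus higher in the pull-down, with no overlap between the fractions, and the Psmb10 share was not. Leaving out Sh TRAP 2 and Sh TRAP 3 gave 14.0 ± 6.11%, 34.7 ± 11.4% and 6.72 ± 1.51% in TRAP (n = 13).

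The comparison of TRAP with input asks which transcripts were over-represented on tagged ribosomes. Psmb9 had the largest difference of the members. In TMM-scaled CPM, it was at 9.46, 8.92 and 14.5 in the Gh TRAP libraries and at 1.06, 0.390, 0.549 and 0.434 in Gh input. Psmb8 was at 5.995, 6.74 and 13.8 in Gh TRAP and at 0.908, 1.10, 0.633 and 0.237 in Gh input. Every TRAP library was above every input library for both genes. The log2 fold changes were 4.16 (SE 0.516; adjusted p = 3.63e-08) for Psmb9 and 3.65 (SE 0.418; adjusted p = 9.603e-09) for Psmb8 in edgeR's quasi-likelihood test. The neighbors Psmb8 (chromosome 17, 34198195 to 34201454) and Psmb9 (chromosome 17, 34182030 to 34187330) lie in the major histocompatibility region in GRCm38.p6.

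Psmb11 went the other way. It was at 2.72, 2.85 and 1.25 CPM in Gh TRAP and at 5.95, 4.45, 6.63 and 6.90 CPM in Gh input, without overlap, a log2 fold change of -1.45 (SE 0.340; adjusted p = 7.985e-04, edgeR's quasi-likelihood test). In Sh TRAP 2 and Sh TRAP 3, which stand apart, Psmb11 was at 5.27 and 7.72 CPM, inside or above the input range of 4.45 to 6.90 CPM, while the remaining TRAP libraries held 0.704 to 2.85 CPM. Psmb10 did not pass the test, and its values overlapped (6.46, 10.4 and 9.64 CPM in Gh TRAP, and 9.05, 12.3, 9.28 and 6.86 CPM in Gh input).

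Among the constitutive subunits, differences between TRAP and input were smaller and mostly toward TRAP. In Gh, 10 of the 39 members were higher and 1 lower, when 44.5% of all 17015 genes tested differed and 21.3% were higher, so the count of higher members was close to the background. The median log2 fold change was 0.20 over the members and -0.06 over all genes. The alpha ring subunit Psma4 was at 108, 110.1 and 103 CPM in Gh TRAP and at 77.6, 78.7, 79.2 and 71.2 CPM in Gh input, a log2 fold change of 0.48 (SE 0.109; adjusted p = 5.229e-04, edgeR's quasi-likelihood test). A gene of unknown function, AY074887, overlaps Psma4 on the opposite strand. Psmb6 was at 27.7, 27.3 and 32.6 CPM in Gh TRAP and at 19.97, 22.2, 22.3 and 16.8 CPM in Gh input, again without overlap (0.53, SE 0.207; adjusted p = 0.03567, edgeR's quasi-likelihood test). The other members higher in Gh TRAP were Psma2, Psma3 and Psma7 of the alpha ring, Psmb1 of the beta ring, the ATPase Psmc3 and the lid subunit Psmd8, with log2 fold changes of 0.40 to 0.47.

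Over the mean of the 4 groups, with more libraries, 23 members were higher and 3 lower in TRAP, when 70.8% of all genes differed and 32.4% were higher. By role, 5 of the 7 alpha subunits, 3 of the 4 structural beta subunits, 2 of the 3 catalytic subunits, 3 of the 6 ATPases and 5 of the 8 lid subunits were higher. The members that were lower were Psmb11, the lid subunit Psmd11 (-0.26) and the chaperone Psmd5 (-0.21). Psmb9 (4.07) and Psmb8 (3.17) again had the largest differences, and Psmc3ip was higher by 0.74. When Sh TRAP 2 and Sh TRAP 3 were left out, 19 members were higher in Gh TRAP and 31 over the mean of the 4 groups, with 1 lower in each. Of all genes, 50.4% and 74% then differed, and 27% and 36.6% were higher.

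**Figure D2:**
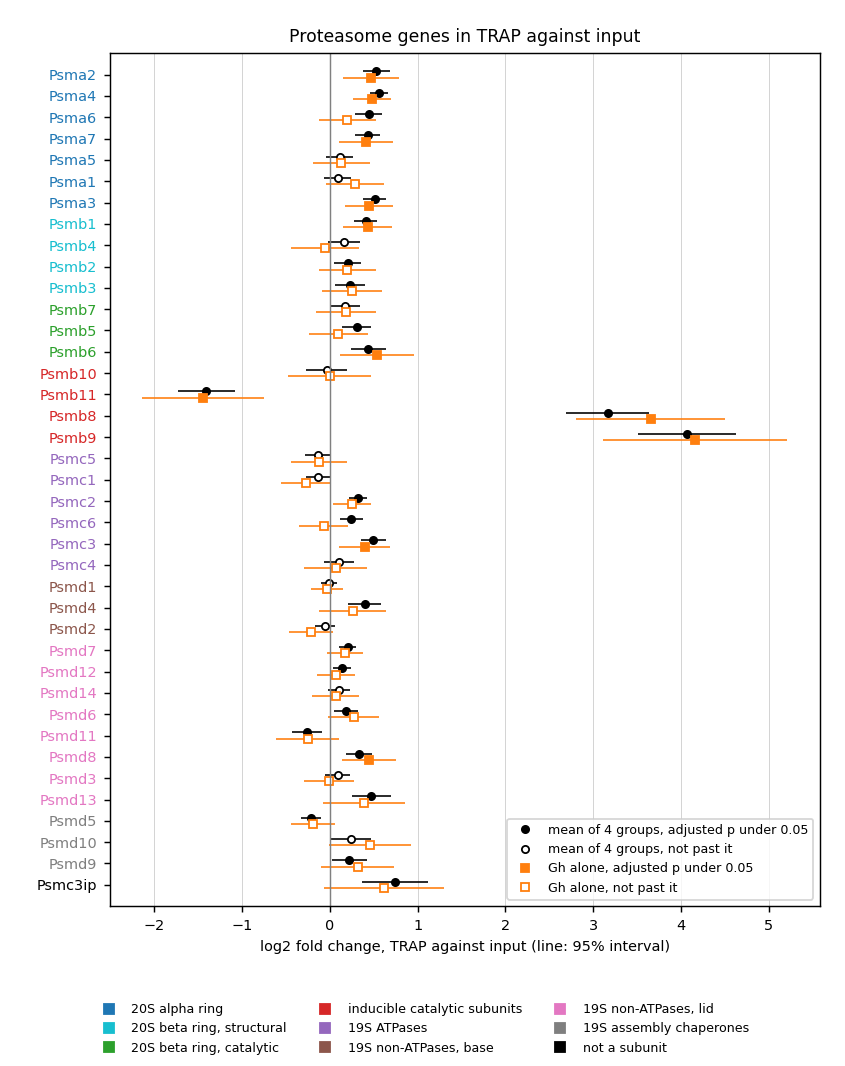
Log2 fold change of TRAP against input for each member, over the mean of the 4 groups (black circles) and in Gh alone (orange squares). Lines are 95% intervals, not adjusted over genes, and filled symbols passed an adjusted p of 0.05; Psmb9 and Psmb8 stand at 3 and above and Psmb11 below -1, while every other member lies between -0.27 and 0.74.

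How TRAP is scaled against input sets the center of this comparison. Scaled to library size alone, without TMM, the median over all genes moved from -0.06 to 0.18 in Gh and from -0.07 to 0.12 over the 4 groups. The members' median moved with it, from 0.20 to 0.44 and from 0.22 to 0.42, and the members called became 23 higher and 1 lower in Gh and 33 higher and 1 lower over the 4 groups, when 44.4% and 70.4% of all genes differed and 30.3% and 42.0% were higher. Psmb8, Psmb9 and Psmb11 kept their direction and passed the test under either scaling, whereas Psmd11 and Psmd5 then had log2 fold changes of -0.06 and -0.02 and were not called.

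Markers of other cell types differed between TRAP and input as well. All 8 markers of meningeal fibroblasts were higher in Gh TRAP, with a summed level of 2766 to 3030 CPM against 107 to 139 CPM in Gh input, and 7 of 8 endothelial markers were higher (220.5 to 241.6 against 18.3 to 24.8 CPM). Of 10 microglial markers, 2 were higher, with sums of 85.0 to 91.1 against 53.1 to 72.3 CPM. Of 7 layer 5 markers, 2 were higher and 3 lower, and 7 of 8 oligodendrocyte and 6 of 7 interneuron markers were lower. No marker of these lists was at 0 in any group. The part of these cell types in the Psmb8 and Psmb9 values was not tested.

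Between the conditions, the summed level of the subunits was lowest in the Sh TRAP libraries. Summed over the 35 subunits, levels were 2023 ± 59.2 CPM in Gh TRAP (SD, n = 3), 1681 ± 285 CPM in Sh TRAP (n = 4), 2179 ± 132 CPM in Sh + Flx TRAP (n = 4) and 2182 ± 129 CPM in Sh + Flx anxious TRAP (n = 4). The Sh TRAP libraries spread from 1304 to 1911 CPM, below all libraries of the other TRAP groups, which began at 1969 CPM. Sh TRAP 1 and Sh TRAP 4 held 1911 and 1891 CPM, and Sh TRAP 2 and Sh TRAP 3 held 1618 and 1304 CPM. Input sums were 1798 ± 151, 1634 ± 89.9, 1732 ± 45.8 and 1743 ± 154 CPM in the same order, and their ranges overlapped. Relative to the Gh TRAP mean, the median member was at -0.09 (log2) in Sh TRAP 1, -0.42 in Sh TRAP 2, -0.98 in Sh TRAP 3 and -0.13 in Sh TRAP 4, and the libraries that stand apart had the lowest medians of all.

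**Figure D3:**
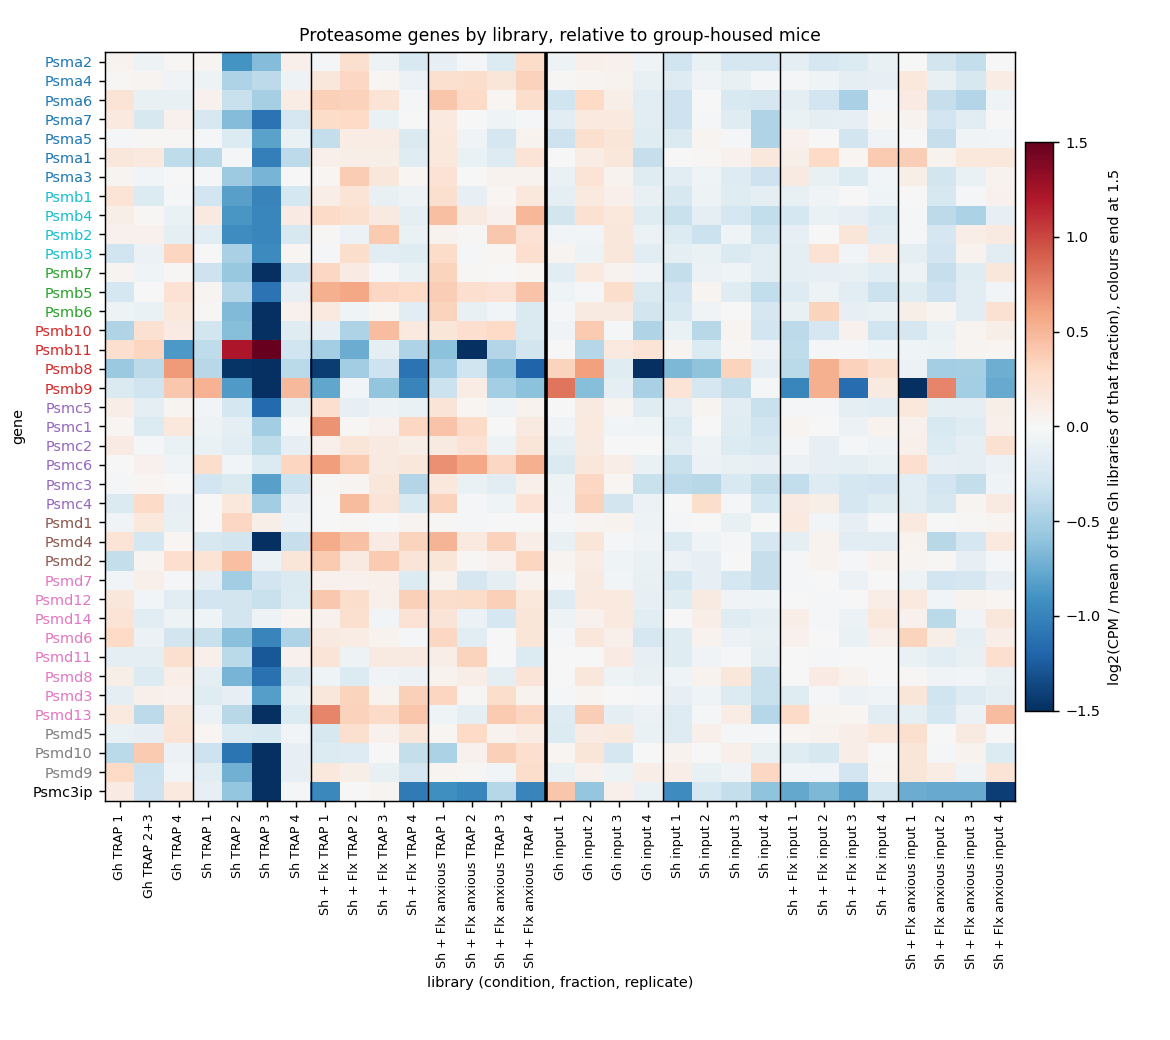
Level of each member in each library, as the log2 ratio to the mean of the Gh libraries of the same fraction (columns, libraries by group; rows, members by role; colors end at 1.5 in either direction). Most members are blue in Sh TRAP 3, where the median is -0.98, and many in Sh TRAP 2, where Psmb11 is red; the remaining TRAP libraries have medians between -0.13 and 0.19.

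The comparison of Sh with Gh concerns social isolation. In TRAP, no member passed edgeR's quasi-likelihood test, and 0% of all 16754 genes did. In edgeR's test 11 members had an unadjusted p under 0.05. With DESeq2 no member was called either. The members' median log2 fold change was -0.32, against 0.02 over all genes, with 35 members below 0. The lid subunit Psmd6 had the smallest p (-0.56, SE 0.174; adjusted p = 0.1912). Its CPM values were 74.8, 57.1 and 50.4 in Gh and 48.4, 39.3, 30.6 and 44.0 in Sh. Those groups did not overlap, as for 10 members in all, each lower in Sh, when 6.59% of all genes were lower in Sh without overlap. With Sh TRAP 2 and Sh TRAP 3 left out, the members' median was -0.09, no member was called and 1 had an unadjusted p under 0.05. Of all 16998 genes in that fit, 2238 had an unadjusted p under 0.05 in edgeR's quasi-likelihood test.

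Fluoxetine was compared in single-housed mice. In TRAP, 8 of the 39 members were higher in Sh + Flx than in Sh and none lower, when 8.48% of all genes differed and 3.16% were higher. The members' median log2 fold change was 0.36. The 8 called were 1 of the 7 alpha subunits (Psma7), 1 of the 4 structural beta subunits (Psmb1), 2 of the 3 constitutive catalytic subunits (Psmb5 and Psmb7), 1 of the 3 base subunits (Psmd4) and 3 of the 8 lid subunits (Psmd6, Psmd12 and Psmd13). None of the 6 ATPases, the 3 chaperones or the inducible and thymus subunits passed. For all 8, the groups did not overlap, as was true of 13 members in total, every one higher in Sh + Flx, when 7.67% of all genes were higher without overlap. Leaving out 1 library at a time gave 1 to 11 members called, counts not set beside the share of all genes called in those fits. Fitted on the Sh and Sh + Flx TRAP libraries alone, 0 members and 42 of 15393 genes (0.273%) were called.

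Psmd12, a structural subunit of the lid, had the smallest p (chromosome 11, 107479528 to 107498036, GRCm38.p6). Its CPM values were 75.2, 76.1, 73.2 and 80.1 in Sh TRAP and 122, 110.7, 96.9 and 118 in Sh + Flx TRAP. All 4 Sh libraries were low and close together, Sh TRAP 2 and Sh TRAP 3 included, and each Gh TRAP library (104, 89.7 and 82.7 CPM) was above them. Psmd12 was at 76.6 to 95.35 CPM in Sh input. Whether input RNA in Sh TRAP 2 and Sh TRAP 3 had a part in their Psmd12 values was not tested. The log2 fold change was 0.55 (SE 0.125; adjusted p = 0.01713, edgeR's quasi-likelihood test). It was 0.53 without Sh TRAP 2 and Sh TRAP 3 (adjusted p = 0.04128), and 0.55 when only these groups were fitted, which lost the call (adjusted p = 0.09465, edgeR's quasi-likelihood test). Without the pair, the Sh side rested on Sh TRAP 1 and 4, which closely resemble each other.

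Psmd4, which binds ubiquitin chains at the base, was at 29.7, 29.0, 11.1 and 27.7 CPM in Sh TRAP and at 51.7, 47.7, 38.2 and 44.4 CPM in Sh + Flx TRAP. Only Sh TRAP 3 was far below the others of its group. The log2 fold change was 0.90 (SE 0.224; adjusted p = 0.02492, edgeR's quasi-likelihood test), and 0.64 without the pair of libraries (adjusted p = 0.06271). The lid subunit Psmd13 had 12.97, 10.3, 4.90 and 11.95 CPM in Sh TRAP and 22.9, 17.5, 16.9 and 18.5 CPM in Sh + Flx TRAP. Its log2 fold change of 0.89 (SE 0.248; adjusted p = 0.03621, edgeR's quasi-likelihood test) was 0.57 without the pair (adjusted p = 0.2107), and Gm15542 overlaps it. Psmd6 (48.4, 39.3, 30.6 and 44.0 CPM in Sh TRAP; 66.5, 65.8, 63.2 and 60.2 CPM in Sh + Flx TRAP) had a log2 fold change of 0.64 (SE 0.160; adjusted p = 0.02416, edgeR's quasi-likelihood test). Without the pair it was 0.46 (adjusted p = 0.1233).

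In the core, the chymotrypsin-like subunit Psmb5 was at 29.6, 21.5, 13.4 and 26.3 CPM in Sh TRAP and at 41.8, 43.1, 35.7 and 35.4 CPM in Sh + Flx TRAP. Sh TRAP 3 was again the lowest, and each Sh + Flx library was above each Sh library. The log2 fold change was 0.75 (SE 0.190; adjusted p = 0.02582, edgeR's quasi-likelihood test), and 0.45 without Sh TRAP 2 and Sh TRAP 3 (adjusted p = 0.137). Its gene holds the microRNA Mir686 and, as shown above, the antioxidant response core upstream. Psmb7 had 90.4, 75.3, 36.9 and 89.5 CPM in Sh TRAP and 138, 122, 110.5 and 104 CPM in Sh + Flx TRAP. Psmb7 rose by 0.69 (SE 0.199; adjusted p = 0.04029, edgeR's quasi-likelihood test), and by 0.39 without the pair (adjusted p = 0.1269). The structural subunits of the core called here had the same order of libraries, with Sh TRAP 3 lowest and Sh TRAP 2 next. The alpha subunit Psma7 was at 73.2, 55.5, 40.4 and 73.0 CPM in Sh TRAP and at 105, 107, 80.8 and 87.0 CPM in Sh + Flx TRAP (log2 fold change 0.64, SE 0.170; adjusted p = 0.03074, edgeR's quasi-likelihood test). The beta subunit Psmb1 was at 53.1, 37.0, 32.3 and 54.1 CPM and at 69.6, 75.1, 60.1 and 61.7 CPM (0.57, SE 0.165; adjusted p = 0.04011, edgeR's quasi-likelihood test). Without the pair their log2 fold changes were 0.36 and 0.30, and neither passed. Psmb6, the remaining constitutive catalytic subunit, was at 29.6, 18.4, 10.04 and 30.5 CPM in Sh TRAP and at 32.5, 27.9, 29.5 and 26.0 CPM in Sh + Flx TRAP, so the groups overlapped and it did not pass.

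**Figure D4:**
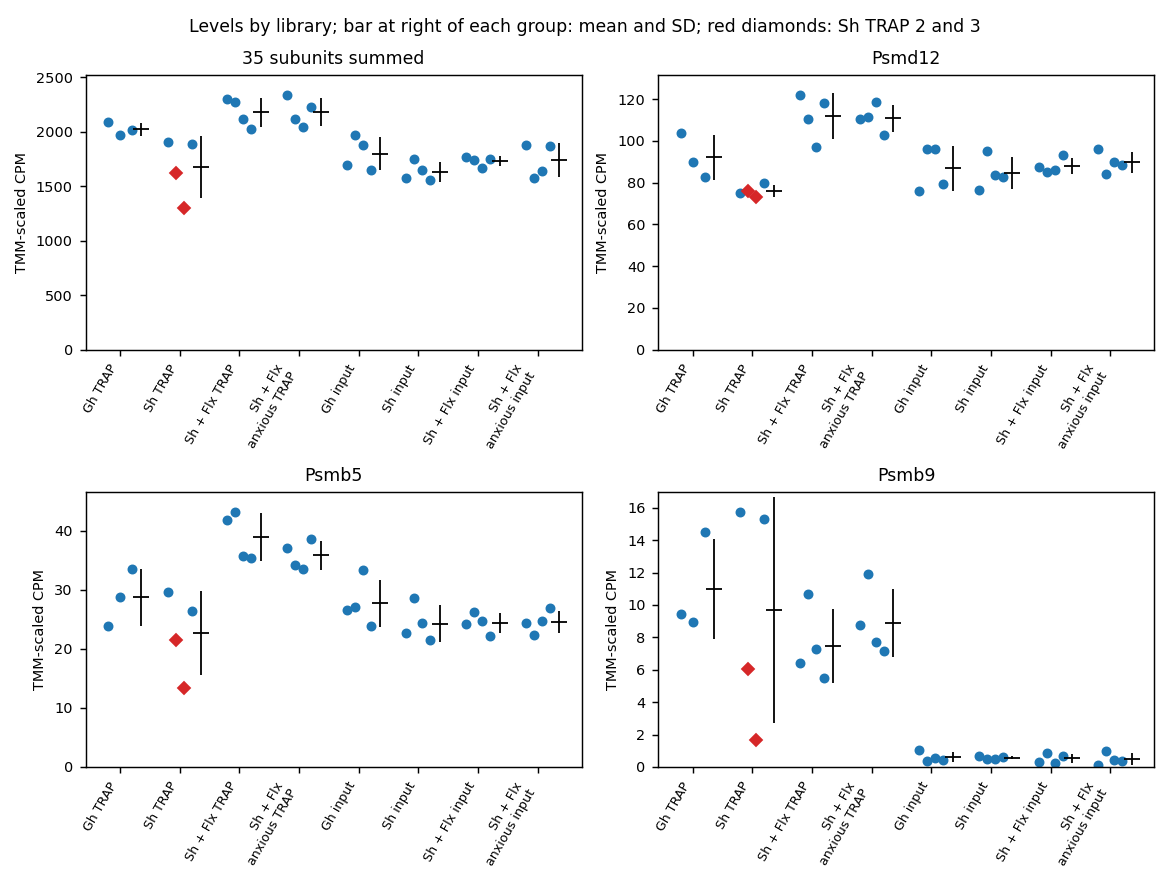
Levels by library in TMM-scaled CPM for the 35 subunits summed, Psmd12, Psmb5 and Psmb9. Each point is a library, the bar to its right is the group's mean and SD, and red diamonds mark Sh TRAP 2 and Sh TRAP 3; for Psmd12 all Sh TRAP libraries lie at 73.2 to 80.1 CPM, for Psmb5 the diamonds are the lowest points, and Psmb9 is near 0 in every input library.

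Leaving out Sh TRAP 2 and Sh TRAP 3 left 1 member higher in Sh + Flx, Psmd12, and 1 lower, Psmb9, when 2.55% of all genes differed, and the members' median was 0.14. In that fit 9 of the 39 members and 3054 of all 16998 genes had an unadjusted p under 0.05 in edgeR's quasi-likelihood test. Psmb9 was at 15.7 and 15.3 CPM in Sh TRAP 1 and 4, at 6.06 and 1.69 CPM in Sh TRAP 2 and 3, and at 6.40, 10.7, 7.27 and 5.51 CPM in Sh + Flx TRAP. With all Sh libraries the groups overlapped (log2 fold change -0.48, adjusted p = 0.4523, edgeR's quasi-likelihood test), and without the pair the difference was -1.10 (adjusted p = 0.04024), now resting on Sh TRAP 1 and 4, which closely resemble each other. Nuclear long noncoding RNAs moved with this comparison: 6 of 7 were lower in Sh + Flx TRAP, with sums of 5389 to 6085 CPM against 8377 to 53810 CPM in Sh TRAP. Of the cell type markers, 1 of 8 oligodendrocyte markers was lower and 1 each of the fibroblast and layer 5 markers was higher, and S100a10 differed by 0.55 (adjusted p = 0.266). Without the pair of libraries 1 long noncoding RNA and 1 oligodendrocyte marker were lower, 1 layer 5 marker was higher, 1 fibroblast marker was higher and 2 lower, and S100a10 differed by -0.06. Their part in the member values was not tested.

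The Sh + Flx anxious group was compared with the same Sh libraries, so the comparisons share their controls. In TRAP, 9 members were higher than in Sh and none lower, when 12.7% of all genes differed and 4.92% were higher, with a median of 0.40 over the members. They were Psma4 and Psma7, Psmb1 and Psmb2, Psmb5 and Psmb7, Psmd4, and Psmd6 and Psmd12. Psmd12 was at 110.4, 111.3, 118 and 103 CPM, all above the Sh range of 73.2 to 80.1 CPM (log2 fold change 0.54, SE 0.125; adjusted p = 0.01158, edgeR's quasi-likelihood test). Psma4 was at 126.5, 128.1, 121.8 and 136.4 CPM, against 101.7, 77.4, 81.4 and 101.8 CPM in Sh TRAP (0.50, SE 0.127; adjusted p = 0.01866, edgeR's quasi-likelihood test). Psmb2 was at 41.0, 40.2, 52.4 and 46.1 CPM, against 35.3, 20.8, 20.1 and 33.5 CPM (0.70, SE 0.184; adjusted p = 0.0212, edgeR's quasi-likelihood test). Every anxious library was above every Sh library in each of these. Psmd6 was at 75.2, 54.4, 60.8 and 69.1 CPM, above its Sh range of 30.6 to 48.4 CPM (0.68, SE 0.159; adjusted p = 0.0131, edgeR's quasi-likelihood test). Psmb1 was at 76.4, 59.6, 66.1 and 72.2 CPM, above its Sh range of 32.3 to 54.1 CPM (0.63, SE 0.164; adjusted p = 0.02053, edgeR's quasi-likelihood test). In all 9 the groups did not overlap, and in total 15 members did not, all higher in the anxious group, when 9.01% of all genes were higher without overlap. Leaving out 1 library at a time gave 3 to 16 members called, again without the share of all genes beside them. With only the Sh and Sh + Flx anxious TRAP libraries fitted, 0 members and 266 of 15483 genes (1.72%) were called, and Psmd12, at 0.55, had the smallest adjusted p of the members (0.05626, edgeR's quasi-likelihood test).

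Without Sh TRAP 2 and Sh TRAP 3, Psmd12 was the single member called (0.53, adjusted p = 0.02958, edgeR's quasi-likelihood test), when 5.06% of all genes differed, and the median was 0.23. In that fit 10 of the 39 members and 3626 of all 16998 genes had an unadjusted p under 0.05 in the same test. Here too the Sh side rested on Sh TRAP 1 and 4. Psmb7 then had 0.42 (adjusted p = 0.07919), Psmd4 0.58 (adjusted p = 0.06761), Psmd6 0.49 (adjusted p = 0.07148) and Psma4 0.34 (adjusted p = 0.09646). The core subunits Psmb1, Psmb2, Psmb5 and Psma7 had 0.37, 0.41, 0.35 and 0.27 (adjusted p = 0.143, 0.1688, 0.2046 and 0.2976, edgeR's quasi-likelihood test). All 7 nuclear long noncoding RNAs were lower in the anxious group than in Sh (3946 to 7062 CPM summed), 2 of 8 oligodendrocyte markers were lower, and 3 of 7 layer 5 and 2 of 8 fibroblast markers were higher. S100a10 was at 60.7 to 68.4 CPM in the anxious group and at 11.9 to 59.0 CPM in Sh TRAP, without overlap, a log2 fold change of 0.85 (SE 0.315) that did not pass (adjusted p = 0.0789, edgeR's quasi-likelihood test). Without the pair it was 0.24, and 3 long noncoding RNAs and 2 oligodendrocyte markers were lower, 1 layer 5 marker was higher, and 1 fibroblast marker was higher and 3 lower. Whether these had a part in the member values was not tested.

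**Figure D5:**
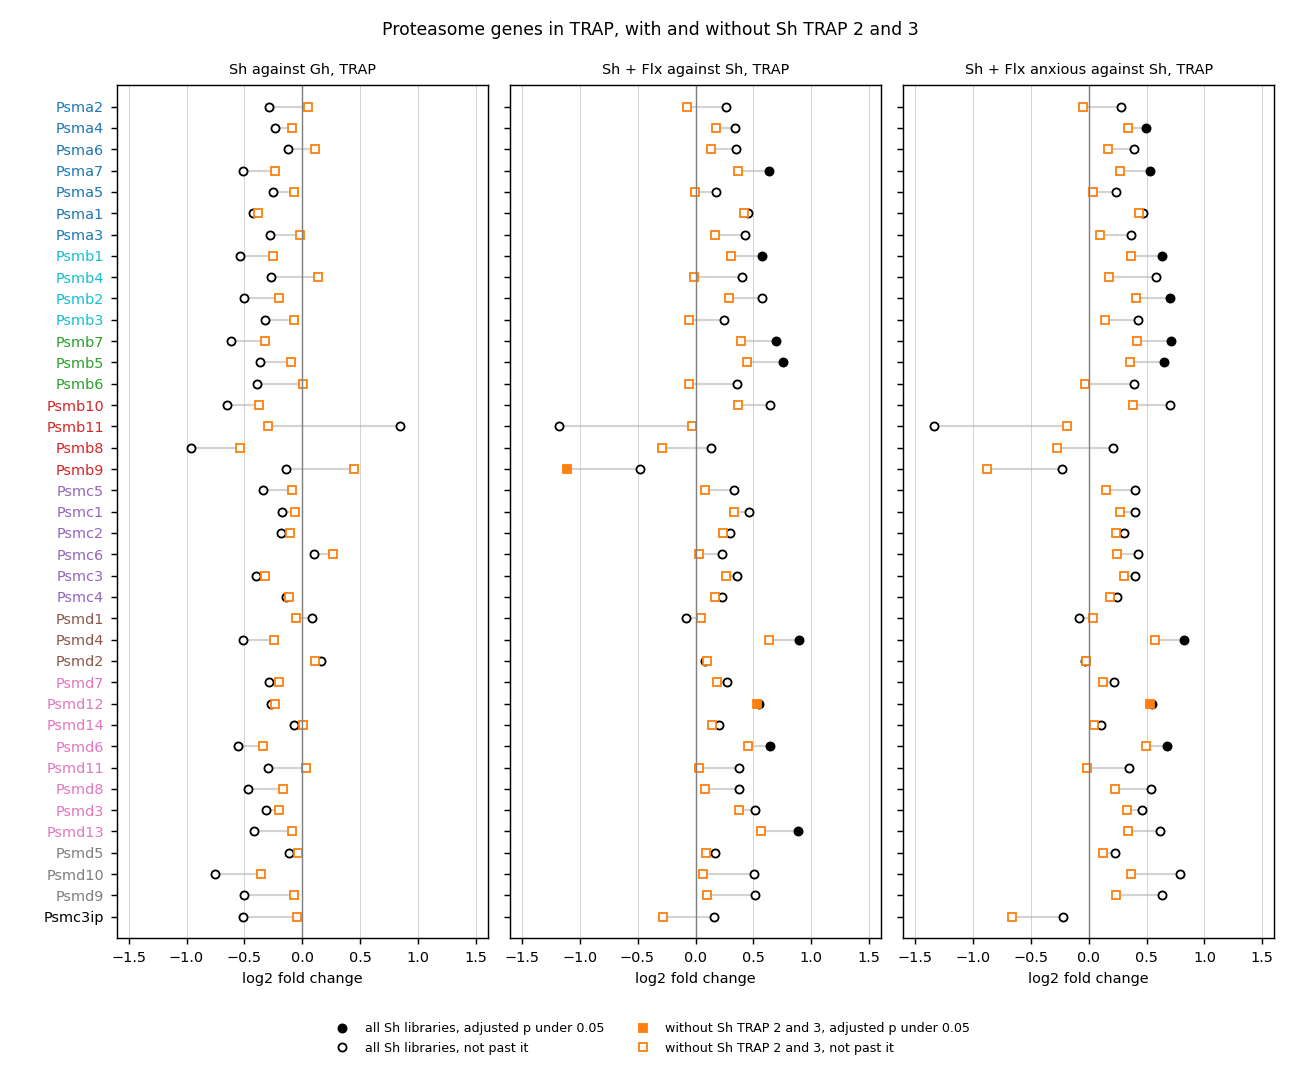
Log2 fold change of each member in TRAP in 3 comparisons (left, Sh with Gh; middle, Sh + Flx with Sh; right, Sh + Flx anxious with Sh). Black circles use all Sh libraries and orange squares leave out Sh TRAP 2 and Sh TRAP 3, with filled symbols past an adjusted p of 0.05; Psmd12 hardly moves (0.55 to 0.53 and 0.54 to 0.53), most other members shrink toward 0, and Psmb11 and Psmb9 move most.

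The fluoxetine groups were next set against group-housed controls in TRAP. No member differed between Sh + Flx and Gh by edgeR's quasi-likelihood test (median 0.07; 1 with an unadjusted p under 0.05; none by DESeq2), when 0.131% of all genes did. None differed between Sh + Flx anxious and Gh (median 0.09; 2 with an unadjusted p under 0.05; none by DESeq2), when 0.233% of all genes did. The ATPase Psmc6 came nearest, at 44.7, 46.8 and 43.3 CPM in Gh TRAP and 72.5, 67.1, 55.9 and 64.9 CPM in Sh + Flx anxious TRAP, without overlap (0.53, SE 0.165; adjusted p = 0.2252). Without Sh TRAP 2 and Sh TRAP 3, which belong to neither group, Psmc6 had 0.51 and was the 1 member to pass (adjusted p = 0.04498, edgeR's quasi-likelihood test). The share of all genes called rose as well, to 3.19%. Psmd12 differed from Gh by 0.28 (95% interval -0.002 to 0.56) in Sh + Flx TRAP and by 0.28 (-0.006 to 0.56) in the anxious group.

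The fluoxetine groups were also set against each other. In TRAP no member differed by edgeR's quasi-likelihood test, none by DESeq2 and 0 had an unadjusted p under 0.05, when 0.0119% of all genes differed, and the median was 0.02. For Psmd12 the difference was -0.004 with a 95% interval of -0.26 to 0.25. In input no member differed by edgeR's quasi-likelihood test either (median 0.01; 1 with an unadjusted p under 0.05; none by DESeq2), when 0.166% of all genes did.

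In whole cortex, 1 member passed edgeR's quasi-likelihood test in any comparison of the conditions. Between Sh and Gh input no member passed edgeR's quasi-likelihood test, when 0.0829% of all genes did, and the median was -0.14, with 35 of 39 below 0 and 8 at an unadjusted p under 0.05. DESeq2 called 1 member, the lid subunit Psmd7, which was at 95.8, 104, 92.8 and 88.2 CPM in Gh input and 79.3, 87.6, 79.6 and 75.2 CPM in Sh input. These groups did not overlap (-0.24, SE 0.0663; adjusted p = 0.162, edgeR's quasi-likelihood test). No member differed from Sh in Sh + Flx input (median 0.08; 2 with an unadjusted p under 0.05; background 2.54%) or in Sh + Flx anxious input (median 0.08; 2 with an unadjusted p under 0.05; background 6.79%), by edgeR's quasi-likelihood test or by DESeq2. Psmd12 had input log2 fold changes against Sh of 0.04 (95% interval -0.11 to 0.20) and 0.08 (-0.08 to 0.24).

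Against Gh input, no member differed in Sh + Flx by edgeR's quasi-likelihood test (median -0.06; 4 with an unadjusted p under 0.05; none by DESeq2), when 5.69% of all genes did. In Sh + Flx anxious input 1 member was lower, when 12.2% of all genes differed. It was Psmc3ip, the gene that is no subunit, at 4.23, 2.11, 3.33 and 2.96 CPM in Gh input and 1.89, 1.87, 1.88 and 1.19 CPM in Sh + Flx anxious input. The groups did not overlap, on 33 to 135 reads per input library (-0.91, SE 0.255; adjusted p = 0.01681, edgeR's quasi-likelihood test). The call was lost without Sh + Flx anxious input 4, when 0 members passed. Psmc3ip overlaps Mlx, so reads of the genes may be split, and no subunit passed (Psmd7 -0.18, Psmb4 -0.23 and Psmc3 -0.21 had unadjusted p under 0.05).

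Whether a TRAP difference went beyond that in input was tested in a model over both fractions. For Sh against Gh no member passed edgeR's quasi-likelihood test (3 with an unadjusted p under 0.05; none by DESeq2), and 0% of all genes did. For Sh + Flx against Sh, Psmd12 alone passed, with a difference of log2 fold changes of 0.50 (SE 0.138; adjusted p = 0.04345, edgeR's quasi-likelihood test), when 2.86% of all genes did. For Sh + Flx anxious against Sh, Psmd12 alone passed at 0.46 (SE 0.138; adjusted p = 0.04081, edgeR's quasi-likelihood test), when 7.05% of all genes did. When the libraries that stand apart were left out, no member passed in either fluoxetine comparison (smallest adjusted p = 0.08043 and 0.0692), with Psmd12 at 0.51 and 0.48. Both Psmd12 calls were also lost, with 0 members called, when only the groups compared were fitted (smallest adjusted p = 0.1286 and 0.09429), with no filter on low counts and with a replicate block. Leaving out 1 library at a time gave 0 to 9 and 0 to 12 members called, also without the share of all genes beside them.

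Partners of the proteasome were examined as a list of 40 genes. In TRAP, 3 of the 40 were higher in Sh + Flx than in Sh and none lower, when 8.48% of all genes differed and 3.16% were higher. They were listed among the shuttles that carry ubiquitinated proteins to the proteasome or unfold them, Rad23b by 0.55 (adjusted p = 0.01365), Ufd1l by 0.55 (adjusted p = 0.01818) and Nploc4 by 0.51 (adjusted p = 0.04716) in edgeR's quasi-likelihood test. In the anxious group 5 were higher and 1 lower than in Sh, when 4.92% of all genes were higher. Among the higher ones were Rad23b (0.63), Ufd1l (0.46), the shuttle Ubqln1 (0.41) and the core assembly chaperone Pomp (0.77), and the activator Psme4 was lower (-0.78). In Sh TRAP, Psme4 was at 79.8, 128, 177 and 76.8 CPM, highest in the libraries that stand apart, and in the anxious group at 65.0 to 75.3 CPM. With Sh TRAP 2 and Sh TRAP 3 left out, Rad23b was the 1 partner higher in Sh + Flx (0.42; adjusted p = 0.04138, edgeR's quasi-likelihood test), and it was among 2 higher in the anxious group (0.50; adjusted p = 0.01255). Of all genes, 2.55% and 5.06% differed in these fits. The calls of Ufd1l, Nploc4, Ubqln1, Pomp and Psme4 were then lost, with Psme4 at -0.21 in the anxious group (adjusted p = 0.4353, edgeR's quasi-likelihood test). In these fits the Sh side rested on Sh TRAP 1 and 4, which closely resemble each other.

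Between TRAP and input in Gh, 12 partners were higher and 8 lower, when 44.5% of all genes differed and 21.3% were higher. The subunits of the interferon-inducible activator cap were among the higher ones, Psme1 at 126 ± 7.65 CPM in Gh TRAP (SD, n = 3) and 44.2 ± 1.89 CPM in Gh input (n = 4), and Psme2 at 38.0 ± 5.13 and 11.4 ± 3.74 CPM. Their log2 fold changes were 1.5 (SE 0.207; adjusted p = 4.277e-07) and 1.72 (SE 0.244; adjusted p = 7.599e-07) in edgeR's quasi-likelihood test. Psme2b, a near copy of Psme2 whose reads may be split with it, had 3.09. The transcription factor Nfe2l2 was at 224 ± 20.3 CPM in Gh TRAP and 26.6 ± 1.86 CPM in Gh input (3.07, SE 0.183; adjusted p = 8.688e-15, edgeR's quasi-likelihood test). Of the shuttles and unfolding factors, 5 of 12 were lower in TRAP, among them Rad23b (-0.42) and Ubqln1 (-0.38). In input, Ube3c, a ubiquitin ligase of the proteasome, was the 1 partner of 40 higher in the anxious group than in Sh (0.25; adjusted p = 0.03984, edgeR's quasi-likelihood test). Of all genes, 6.79% differed in that comparison.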

How the data were processed

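Libraries of TRAP RNA and whole-cortex input RNA (32, each a pool of 3 mice) were grouped by the labels of housing, treatment and fraction. The deposited files hold raw counts of reads per gene, which the authors made from paired reads amplified with an unstranded kit and aligned with TopHat2 2.0.11 to mm10. The program that counted reads, and whether it used strand, were not given in the sources used here. Reads of members that overlap another gene (10 of 39) may therefore be split. The authors also deposited group mean FPKM with their own fold changes and p-values, which were not used. Library sizes leave out the 5 lines per file without a gene name (no feature, 25.2% to 58.6% of reads).

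Counts were normalized by TMM, filtered by filterByExpr and tested with edgeR 4.0.16 (R 4.3.3) by its quasi-likelihood test over all genes, in separate fits for TRAP (15 libraries, 16754 genes) and input (16 libraries, 15690 genes), and in a joint fit with fraction terms (17015 genes). All 39 members passed the filter in each fit. An adjusted p (Benjamini-Hochberg over all genes tested) under 0.05 was called, 95% intervals were not adjusted over genes, and fold changes are on the log2 scale. Levels are TMM-scaled CPM. The scripts were tested on simulated data. Members were named if catalytic or inducible, among the 8 smallest p of Sh + Flx against Sh in TRAP or the 4 smallest of another comparison with calls, or at the ends of the level order, and partners if among the 4 smallest p. Others named were picked after their values were seen. Members, gene lists and promoter motifs were chosen with earlier results of these data known. Alternatives were DESeq2 1.42.0, library size alone, no filter, only the groups compared, a replicate block, Gh TRAP 2 and Gh TRAP 3 as separate libraries, and leaving out libraries. Summing Sh TRAP 1 and 4, and edgeR's legacy mode, were added after the data had been seen. RefSeq (GRCm38.p6) gave coordinates, exon lengths and promoters.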

Additional observations from a re-analysis of the deposited data

Results flagged for a closer look

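Among 133 groups of 4 libraries (19 genes), 10 had 1 library far from the rest by Dixon's ratio, where chance gives about 1 in 20. In TRAP, Psmd4 was at 11.1 CPM in Sh TRAP 3, against 27.7 to 29.7 CPM in the other Sh TRAP libraries. Psmb7 was at 140.4 CPM in Sh + Flx anxious TRAP 1 (others 110.8 to 114 CPM), Psmd7 at 93.0 CPM in Sh + Flx TRAP 4 (112 to 113.2 CPM), Psmc3ip at 3.71 CPM in Sh + Flx anxious TRAP 3 (2.52 to 2.65 CPM) and S100a10 at 60.7 CPM in Sh + Flx anxious TRAP 1 (67.3 to 68.4 CPM). In input, Psmb6 was at 25.6 CPM in Sh + Flx input 2 (18.6 to 18.9 CPM), Psmd4 at 29.7 CPM in the same library (25.3 to 25.7 CPM), Psmb11 at 4.61 CPM in Sh + Flx input 1 (5.72 to 5.92 CPM), Psmd13 at 13.1 CPM in Gh input 2 (8.89 to 9.54 CPM) and Psmc3ip at 1.19 CPM in Sh + Flx anxious input 4 (1.87 to 1.89 CPM).

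The difference of Psmd12 between single-housed mice with and without fluoxetine was larger in TRAP than in input, by 0.50 on the log2 scale for Sh + Flx and by 0.46 for Sh + Flx anxious. Both passed edgeR's quasi-likelihood test of the difference between fractions (adjusted p = 0.04345 and 0.04081). Both calls were lost, with 0 members called, without Sh TRAP 2 and Sh TRAP 3, with no filter on low counts, with only the groups compared and with a replicate block.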

How the results depend on the processing

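Of 151 counts of members called under alternatives other than leaving out 1 library, 127 stayed within 1.5 times the reported count. These 127 include comparisons without calls, where a count that stayed at 0 was taken as within. Without Sh TRAP 2 and Sh TRAP 3, the count fell from 8 to 2 for Sh + Flx against Sh in TRAP and from 9 to 1 for the anxious group against Sh. It was 0 for both tests of fluoxetine in TRAP relative to input. The count rose from 0 to 1 for the anxious group against Gh in TRAP, when the share of all genes rose from 0.233% to 3.19%. For TRAP against input in Gh it rose from 11 to 20, when the share of all genes rose from 44.5% to 50.4%. Fitting only the groups compared gave 0 for Sh + Flx against Sh, 0 for the anxious group against Sh, and 0 for both tests relative to input. It gave 1 for the anxious group against Gh in TRAP, when 2.41% of all genes differed. For TRAP against input in Gh it gave 20, when 52.8% of all genes differed and 28% were higher. Over all genes, fitting only the groups compared called 42 and 266 for Sh + Flx and the anxious group against Sh in TRAP. The corresponding counts were 1420 and 2124 as reported, 433 and 860 without the pair of libraries and 2400 and 2787 with DESeq2. Library size alone gave 24 for TRAP against input in Gh. DESeq2 gave 1 for Sh against Gh in input, and 4 and 6 for fluoxetine and the anxious group relative to input. For these tests no filter gave 0 and 0, separate Gh TRAP 2 and Gh TRAP 3 gave 3 for Sh + Flx, summing Sh TRAP 1 and 4 gave 4 and 7, and the legacy mode gave 2 for the anxious group. Where no share of all genes is given, these counts do not tell a change of the members from a change over all genes. The cause was not tested.

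Same-numbered libraries of different groups did not deviate together (correlations of -0.0465 to 0.0562 in input and -0.135 to 0.116 in TRAP). Within each input group, replicates 1 and 4 and replicates 2 and 3 were more alike than the other pairs. In Sh + Flx input, for example, their mean chi-square per gene was 5.286 and 5.443, against 13.53 to 16.15. In TRAP this held in each group but Sh + Flx anxious. Whether such pairs share a source was not tested, and only Gh TRAP 2 and 3 were summed in the main fit. With a replicate block, the counts in TRAP were 8 for Sh + Flx and 12 for the anxious group against Sh, and 0 and 0 relative to input. The share of all genes called with the block was not set beside them.

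Leaving out 1 library at a time gave 1 to 11 members for Sh + Flx against Sh in TRAP, 3 to 16 for the anxious group against Sh, 0 to 1 for Sh + Flx against Gh in input, 0 to 3 for the anxious group against Gh in input, 8 to 12 for TRAP against input in Gh, 25 to 30 over the 4 groups, and 0 to 9 and 0 to 12 for fluoxetine and the anxious group relative to input. For Sh + Flx against Sh, 2 were called without Sh TRAP 2 or 3, 1 without Sh + Flx TRAP 1 or 2, 3 without Sh + Flx TRAP 3 and 5 without Sh + Flx TRAP 4. For the anxious group against Sh, 15, 3, 5 and 16 were called without Sh TRAP 1, 2, 3 or 4, and 4 without Sh + Flx anxious TRAP 1 or 3. Against Gh in input, the anxious group had 3 without Gh input 4, 2 without Sh + Flx anxious input 1 and 0 without Sh + Flx anxious input 4, and Sh + Flx had 1 without Gh input 2 or 4. Relative to input, 9 and 12 were called without Sh TRAP 1 and 5 and 9 without Sh TRAP 4, and 0 or 1 without each other library. Because these counts stand without the share of all genes called, they do not describe the members apart from other genes. Of 28 results on single members fitted without Sh TRAP 2 and 3, 12 lost their call, of 32 with library size alone 2 did, and none of these turned. Both sets include members that were not called in the main fit and so had no call to lose. Depth limits Psmb8 and Psmb9 in input, at 4 to 34 reads.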
